A study of Mus musculus with 4 samples.

Results

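The 10 genes described here encode receptors and signaling proteins that place B cells within the spleen. They were taken by name from the count table and comprise 6 receptors (*S1pr1*, *S1pr4*, *Gpr183*, *Ccr6*, *Cxcr4* and *Cnr2*), 2 G protein alpha subunits (*Gna13* and *Gnai2*) and 2 regulators of G protein signaling (*Rgs1* and *Rgs2*). They are 10 of 41214 genes in the table. All 10 passed the count filter that left 14554 genes for testing, with between 1101 and 20238 reads per library.

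The RNA-seq compared unstimulated splenic B220+ cells of MIZ-1WT mice (2 libraries) and MIZ-1△POZ mice (2 libraries). MIZ-1 is a POZ-domain zinc finger transcription factor, encoded by *Zbtb17*. In MIZ-1△POZ mice (*MB1Cre x Miz-1floxPOZ*, Miz-1 deltaPOZ in the labels), a Cre driven by the *Cd79a* promoter removes the floxed POZ domain in B lineage cells, and a shortened MIZ-1 protein remains. The mice were on a C57BL/6 background and 40 to 70 days of age. The text of the study does not say whether the MIZ-1WT controls carry Cre, and it does not describe the age of each mouse. Cells were taken from single-cell suspensions by positive B220 bead selection, which can retain other cells.

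B cells move toward chemokines and lipids through receptors that couple to G proteins. Gαi subunits, such as the product of *Gnai2*, carry the signal for directed migration, whereas Gα13 opposes migration and holds cells in place. RGS proteins shorten Gα signaling by speeding GTP hydrolysis. In the spleen, S1P in blood draws cells outward through S1PR1, oxysterol guides them through GPR183 (EBI2) to the follicle border, CXCL12 acts through CXCR4, CCL20 through CCR6, and the endocannabinoid 2-AG through the cannabinoid receptor CNR2. S1PR4 is a second lymphocyte receptor for S1P.

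Some facts of the libraries touch the values that follow. Each library held between 43026814 and 46387209 reads on genes, and levels are given as CPM, which are read counts scaled to a common library size with TMM normalization. *Zbtb17* itself had 47.8 and 46.3 CPM in MIZ-1WT and 37.3 and 38.0 CPM in MIZ-1△POZ. A count over the whole gene does not test the deletion of the POZ exons. *Xist* had 49 and 60 reads in the MIZ-1WT libraries and 38145 and 40838 in the MIZ-1△POZ libraries, and 4 of 4 Y-linked genes were lower in MIZ-1△POZ. Sex and genotype therefore cannot be told apart in any comparison made here. All 16 macrophage markers rose in MIZ-1△POZ, and their summed level was 950 and 1264 CPM in MIZ-1WT against 5640 and 3565 CPM in MIZ-1△POZ, with no marker at 0. Of the follicular B cell markers, 5 of 7 fell and none rose, whereas 7 of 8 marginal zone markers, 5 of 6 plasma cell markers and 6 of 7 germinal center markers rose. In germinal center markers, *Bcl6* fell. Pan-B cell markers fell in 8 of 10 cases, with a median log2 fold change of -0.25. The largest fall among them was that of *Cd79a* (log2 fold change -1.44), the gene whose promoter drives the Cre. In bulk RNA, fewer cells of a type and less RNA per cell cannot be told apart.

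The difference between genotypes was tested by edgeR (quasi-likelihood), with p adjusted over all 14554 tested genes, at a threshold of 0.05. Log2 fold changes are MIZ-1△POZ over MIZ-1WT. Of the 10 genes, 3 fell (*S1pr4*, *Gpr183* and *Cnr2*), 2 rose (*Rgs1* and *Ccr6*) and 5 did not pass the threshold. Of all tested genes, 18.9% were called lower and 21.1% higher, so a count of 2 in 10 stood at the background and a count of 3 in 10 differed from it by little more than 1 gene. The libraries of the genotypes did not overlap for 8 of 10 members, 6 lower and 2 higher, against 37.6% of all tested genes lower and 37.2% higher without overlap. Across the members the median change was -0.14 on the log2 scale, and across all tested genes it was -0.01. The study's own limits are a log2 change of 0.6 and a p of 0.05, whose sign is printed the other way, and it is unclear whether that p is adjusted. Read here as an unadjusted p under 0.05, they gave *S1pr4* as lower and *Rgs1* as higher. These limits called 5.3% of tested genes lower and 15.0% higher.

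**Figure D1:**
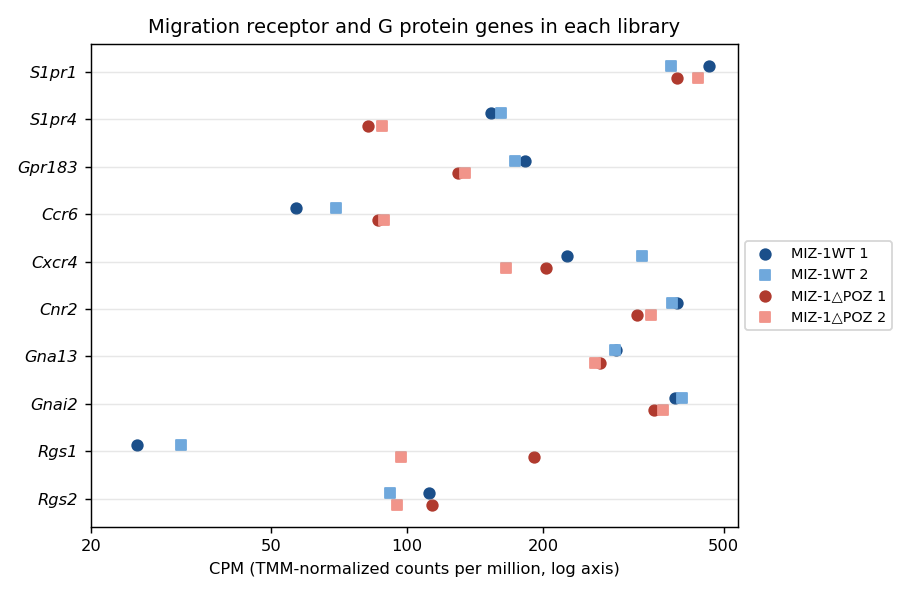
CPM of each of the 10 genes (rows) in each of the 4 libraries (points), on a log axis, with MIZ-1WT in blue and MIZ-1△POZ in red. Libraries of the genotypes are apart for 8 genes and interleaved for S1pr1 and Rgs2, and Rgs1 shows the widest gap between genotypes.

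Promoter-proximal sequence is shown for 3 receptors that changed and for *Gna13*, which did not pass the test, as the 200 bases before the RefSeq start site in GRCm38.p6, written 5′ to 3′ on the strand of the gene. RefSeq windows matched 7 of the 10 members, not *S1pr1*, *Rgs1* or *Gnai2*. *S1pr4* (minus strand, chr10:81500138-81500337) and *Gpr183* (minus strand, chr14:121965194-121965393) are shown as receptors that fell. *Ccr6* (plus strand, chr17:8235843-8236042, the first of its start sites) is shown as the receptor that rose. *Gna13* (plus strand, chr11:109362594-109362793) is shown because it alone of the matched members holds one of the motifs searched, in capitals.
S1pr4: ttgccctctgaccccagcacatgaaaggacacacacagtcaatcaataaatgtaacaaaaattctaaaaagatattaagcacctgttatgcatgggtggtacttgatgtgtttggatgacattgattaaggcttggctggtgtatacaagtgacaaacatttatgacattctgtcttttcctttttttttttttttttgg
Gpr183: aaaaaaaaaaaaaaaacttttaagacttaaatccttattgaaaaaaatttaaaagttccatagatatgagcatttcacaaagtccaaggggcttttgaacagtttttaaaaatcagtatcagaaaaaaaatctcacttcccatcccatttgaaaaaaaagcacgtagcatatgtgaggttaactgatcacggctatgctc
Ccr6: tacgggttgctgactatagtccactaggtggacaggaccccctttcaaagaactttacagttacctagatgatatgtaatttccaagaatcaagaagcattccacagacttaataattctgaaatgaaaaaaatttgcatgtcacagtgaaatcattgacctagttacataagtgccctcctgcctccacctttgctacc
Gna13: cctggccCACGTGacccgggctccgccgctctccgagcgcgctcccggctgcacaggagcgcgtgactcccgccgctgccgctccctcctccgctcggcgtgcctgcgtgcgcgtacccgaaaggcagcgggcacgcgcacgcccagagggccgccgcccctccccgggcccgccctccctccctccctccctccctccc

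The motifs were searched on both strands in windows of 300 bases. They were CACGTG, the E-box read by MYC with MAX, and ATCGGT and ATCGAT, both parts of a motif described for MIZ-1. CCACACCC, a site of the KLF type, was the last. Of 32851 RefSeq windows, 7.15% held CACGTG, 2.33% ATCGGT, 0.925% ATCGAT and 3.56% CCACACCC. A match describes letters only. The windows differed in base composition, from 35.3% GC in *Gpr183* and 41.0% in *S1pr4* to 59.3% in *Cxcr4*, 70% in *Rgs2* and 76.7% in *Gna13*. *Ccr6* had 42.3% and 47.7% at its start sites and *Cnr2* 50.0% and 46.3%, and the median over all windows was 52.7%.

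Of the S1P receptors, *S1pr4* fell and *S1pr1* did not pass the test. *S1pr4* (chr10:81497747-81500132, minus strand) encodes a receptor that couples to Gαi and to Gα12/13. It was measured at 153 and 161 CPM in MIZ-1WT and at 81.7 and 88.1 CPM in MIZ-1△POZ. Both MIZ-1△POZ libraries lay far below both MIZ-1WT libraries, and the replicates of each genotype were close. The mean fell from 157 ± 5.83 CPM (SD, n = 2) to 84.9 ± 4.46 CPM (SD, n = 2), to 54.0% of the MIZ-1WT level. On the log2 scale the difference was -0.89 (standard error 0.06, 95% confidence interval -1.03 to -0.75, adjusted p = 0.000807). In the same libraries the median change on the log2 scale was -0.25 over the pan-B cell markers and -0.52 over the follicular markers. Over the marginal zone markers it was 0.70. The part of these cells in the lower values of *S1pr4*, *Gpr183* and *Cnr2* was not tested.

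*S1pr1* (chr3:115710433-115715072, minus strand), the receptor for exit into S1P-rich blood, was counted with 16099 to 20238 reads per library. Its levels were 464 and 383 CPM in MIZ-1WT and 395 and 439 CPM in MIZ-1△POZ. Both MIZ-1△POZ values lay between the MIZ-1WT values. *S1pr1* had a log2 fold change of -0.02, with a confidence interval from -0.28 to 0.23 (adjusted p = 0.877). Its sign depended on the library set, from -0.16 to 0.12 with 1 library left out.

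*S1pr2* and *S1pr3* rose. *S1pr2*, which signals through Gα13 and confines germinal center B cells, rose from 4.10 and 5.71 CPM in MIZ-1WT to 34.9 and 26.2 CPM in MIZ-1△POZ (log2 fold change 2.64, adjusted p = 0.00115). It is also one of the germinal center markers above. *S1pr3*, which is high in marginal zone B cells and counted among their markers, rose from 50.5 and 43.9 CPM to 69.8 and 89.7 CPM (log2 fold change 0.76, adjusted p = 0.00875). *S1pr5* was low, with 47 to 76 reads per library, and did not pass the test (log2 fold change 0.35, confidence interval -0.25 to 0.95, adjusted p = 0.296). The part of cell composition in these values was not tested.

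Per kilobase of exon, *S1pr1* made up most of the S1P receptor transcripts in each library, with 66.6% and 61.4% in MIZ-1WT and 69.89% and 70.03% in MIZ-1△POZ. The share of *S1pr4* was 28.04% and 33.0% in MIZ-1WT and 18.5% and 17.9% in MIZ-1△POZ. *S1pr3* took 4.94% and 4.8% of the summed level in MIZ-1WT, and 8.43% and 9.77% in MIZ-1△POZ. *S1pr2* stayed a small part, at 0.273% and 0.424% against 2.87% and 1.94%. The shares of these 4 genes did not overlap between the genotypes, whereas the CPM of *S1pr1* did. In CPM, 37.6% of all tested genes were lower and 37.2% higher without overlap. Shares of one family sum to the whole and so are not independent.

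Genes that shape the S1P gradient or its receptor were also measured. *Spns2*, which exports S1P from cells, had 31.6 and 29.9 CPM in MIZ-1WT and 9.08 and 9.59 CPM in MIZ-1△POZ, with the smallest p of its list (log2 fold change -1.72, standard error 0.08, adjusted p = 0.000732). The lipid phosphatases *Plpp1* and *Plpp3*, which can remove phosphate from S1P outside the cell, rose by log2 fold changes of 2.34 and 0.74 (adjusted p = 0.00118 and 0.00237). *Klf2*, the transcription factor that drives *S1pr1* in lymphocytes, fell from 93.0 and 106 CPM to 47.2 and 58.1 CPM (log2 fold change -0.92, adjusted p = 0.00333), and *Foxo1* fell by 0.55 on the log2 scale (adjusted p = 0.0253). *Cd69*, whose product takes S1PR1 off the cell surface, rose by 0.26 on the log2 scale (adjusted p = 0.0382). *S1pr1* itself did not pass the test beside these 3 genes. *Klf2* is also one of the follicular markers above, and the part of cell composition in its value was not tested.

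*Gpr183*, the oxysterol receptor, fell. The gene (chr14:121952551-121965195, minus strand) lies within *Ubac2*, which runs on the opposite strand and shares no exon base with it. It was measured at 182 and 173 CPM in MIZ-1WT and at 129 and 134 CPM in MIZ-1△POZ, with both MIZ-1△POZ libraries below both MIZ-1WT libraries. The mean fell from 178 ± 6.29 CPM (SD, n = 2) to 132 ± 3.43 CPM (SD, n = 2), a log2 fold change of -0.43 (standard error 0.05, confidence interval -0.55 to -0.31, adjusted p = 0.00262). Its neighbor *Gpr18*, a receptor gene 36.8 kb away on the same strand, also fell, with a log2 fold change of -0.30 (adjusted p = 0.0170). *Gpr18* was named for its place beside a member, after its value was seen.

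*Ccr7*, which guides cells toward T cell zones against the pull of CXCR5, fell from 146 and 137 CPM to 94.1 and 104 CPM (log2 fold change -0.51, adjusted p = 0.0037). *Cxcr5*, the receptor for the follicle chemokine CXCL13, was at 513 and 495 CPM in MIZ-1WT and at 482 and 495 CPM in MIZ-1△POZ. *Cxcr5* had a log2 fold change of -0.04, with a confidence interval from -0.16 to 0.07 (adjusted p = 0.492). It is also one of the follicular markers above.

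*Ccr6* (chr17:8236043-8257141, plus strand), the receptor for CCL20, was the only one of the 6 receptors that rose. Its levels were 56.8 and 69.7 CPM in MIZ-1WT and 86.1 and 89.0 CPM in MIZ-1△POZ. The MIZ-1△POZ libraries were close to each other and above both MIZ-1WT libraries, which differed more. The mean rose from 63.3 ± 9.13 CPM (SD, n = 2) to 87.5 ± 2.02 CPM (SD, n = 2), with a log2 fold change of 0.47 (standard error 0.10, confidence interval 0.22 to 0.71, adjusted p = 0.0155). In the same libraries the median log2 fold change was 0.70 over the marginal zone markers and 0.75 over B-1 cell markers. It was 1.01 over plasma cell, 2.41 over germinal center, 0.99 over conventional dendritic cell and 1.98 over macrophage markers. The follicular, transitional and pan-B cell markers had medians of -0.52, -0.71 and -0.25. The part of these cells in the *Ccr6* value was not tested. Without MIZ-1WT replicate 1 the change of *Ccr6* was 0.33 and no longer passed (adjusted p = 0.0553).

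*Cxcr4* (chr1:128588199-128592293, minus strand), the receptor for CXCL12, did not pass the threshold, although its libraries did not overlap. It had 225 and 330.1 CPM in MIZ-1WT and 203 and 166 CPM in MIZ-1△POZ. MIZ-1WT replicate 2 stood apart, while MIZ-1WT replicate 1 lay near MIZ-1△POZ replicate 1. For *Cxcr4* the log2 fold change was -0.59 (standard error 0.19, confidence interval -1.06 to -0.12, adjusted p = 0.0535). The call turned on single libraries. It was -0.84 (adjusted p = 0.0251) without MIZ-1WT replicate 1 and -0.74 (adjusted p = 0.0229) without MIZ-1△POZ replicate 1, whereas without MIZ-1WT replicate 2 it was -0.29 (adjusted p = 0.181). *Tsc22d3*, a gene induced by glucocorticoid, was also highest in MIZ-1WT replicate 2, with 307 and 576 CPM in MIZ-1WT and 438 and 429.9 CPM in MIZ-1△POZ. *Tsc22d3* was named for this shared highest library, after its values were seen. The order of the other libraries differed, as MIZ-1WT replicate 1 was lowest for *Tsc22d3* but above both MIZ-1△POZ libraries for *Cxcr4*. The part of MIZ-1WT replicate 2 in the *Cxcr4* value was not tested. *Ackr3*, a scavenging receptor for CXCL12, rose from 8.71 and 6.71 CPM to 35.4 and 33.7 CPM (log2 fold change 2.16, adjusted p = 0.00076).

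*Cnr2* (chr4:135895394-135920207, plus strand) encodes the cannabinoid receptor of immune cells, known to help keep marginal zone B cells in place. It was at 394 and 385 CPM in MIZ-1WT and at 322 and 346 CPM in MIZ-1△POZ. Both MIZ-1△POZ libraries were lower, but the gap to MIZ-1WT was small. The mean went from 389.8 ± 6.60 CPM (SD, n = 2) to 334 ± 17.3 CPM (SD, n = 2), a log2 fold change of -0.22 (standard error 0.05, confidence interval -0.36 to -0.09, adjusted p = 0.0230). The call was lost without MIZ-1WT replicate 1 or 2, where the change stayed near its size (-0.21 and -0.24, adjusted p = 0.136 and 0.0940). It was also lost without MIZ-1△POZ replicate 1 (-0.16, adjusted p = 0.0570) and among genes of at least 30 RPM on average (-0.15, adjusted p = 0.0800), where the change was smaller. *Cnr1*, the cannabinoid receptor of the nervous system, was near the floor, with 2 and 4 reads in MIZ-1WT and 16 and 11 in MIZ-1△POZ (log2 fold change 2.03, adjusted p = 0.0357). *Faah*, an enzyme that degrades endocannabinoids, fell by 0.35 on the log2 scale (adjusted p = 0.0105).

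**Figure D2:**
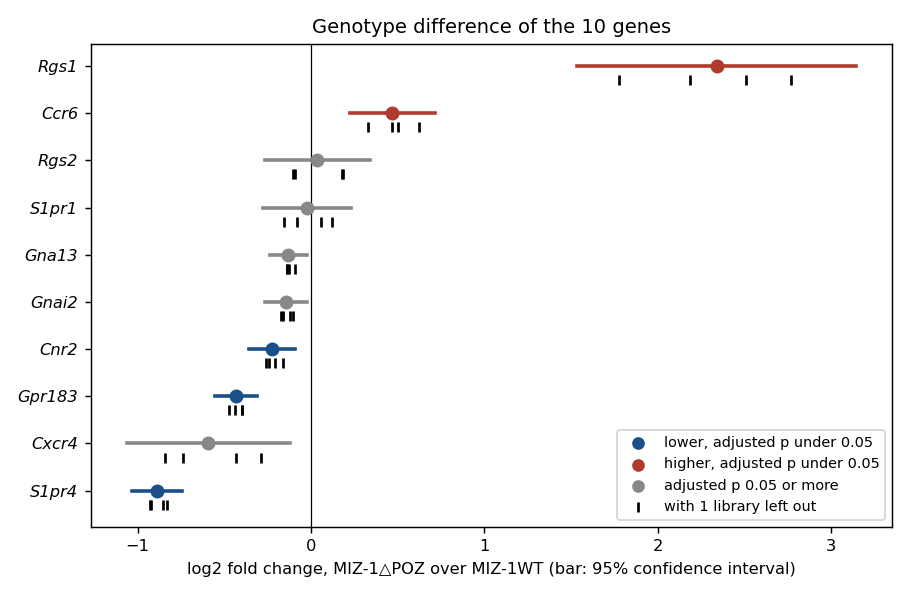
Log2 fold change of MIZ-1△POZ over MIZ-1WT for the 10 genes, with the 95% confidence interval as a bar and the values with 1 library left out as ticks below it. S1pr4, Gpr183, Cxcr4, Cnr2, Gna13 and Gnai2 keep all ticks left of 0. Rgs1 and Ccr6 keep them right of 0, and the ticks of S1pr1 and Rgs2 lie on both sides.

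Neither G protein alpha subunit passed the threshold. *Gnai2* (chr9:107614125-107635367, minus strand), the main Gαi gene of lymphocytes, had 389.5 and 404 CPM in MIZ-1WT and 351 and 368 CPM in MIZ-1△POZ. The MIZ-1△POZ libraries were slightly lower. Its log2 fold change was -0.14 (standard error 0.05, confidence interval -0.27 to -0.02, adjusted p = 0.0659). *Gna13* (chr11:109362831-109401369, plus strand) shares 151 exon bases with *Gm11696* on the opposite strand. As the strand setting of the counting is not stated, reads there cannot be assigned with certainty. *Gna13* had 289 and 287 CPM in MIZ-1WT and 267 and 259.9 CPM in MIZ-1△POZ. The libraries did not overlap, and the log2 fold change was -0.13 (standard error 0.04, confidence interval -0.24 to -0.02, adjusted p = 0.0586). For both genes the interval leaves out a fall of more than 0.27 on the log2 scale.

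*Gna12*, the closest relative of *Gna13*, rose from 31.2 and 32.5 CPM to 55.2 and 54.0 CPM (log2 fold change 0.78, standard error 0.06, adjusted p = 0.00102). *Gnai3* fell from 240 and 254 CPM to 221 and 218 CPM (log2 fold change -0.17, adjusted p = 0.0380). *Gnai1* had 1 to 9 reads per library and was not tested. Per kilobase of exon, *Gnai2* remained the most abundant of 13 Gα genes, with 48.7% and 49.2% of their summed level in MIZ-1WT and 47.1% and 48.3% in MIZ-1△POZ. *Gna13* held 13.5% and 13.1% in MIZ-1WT and 13.4% and 12.8% in MIZ-1△POZ, and *Gna12* 2.75% and 2.79% against 5.22% and 4.99%.

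*Rgs1* showed the largest difference of the 10 genes in either direction. *Rgs1* (chr1:144242296-144249242, minus strand) encodes an inhibitor of Gαi signaling that dampens B cell responses to chemokines. It was measured with 1101 and 1330 reads in MIZ-1WT and 9094 and 4252 reads in MIZ-1△POZ, or 25.2 and 31.7 CPM against 191 and 96.9 CPM. Both MIZ-1△POZ libraries were well above MIZ-1WT, and they also differed from each other, with replicate 1 much higher than replicate 2. The mean rose from 28.4 ± 4.53 CPM (SD, n = 2) to 144 ± 66.6 CPM (SD, n = 2). For *Rgs1* the log2 fold change was 2.34 (standard error 0.33, confidence interval 1.54 to 3.14, adjusted p = 0.00443), or 5.07-fold. It ranged from 1.78 without MIZ-1△POZ replicate 1 to 2.77 without MIZ-1△POZ replicate 2, and passed the test in each case.

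The order of the libraries in *Rgs1* was also that of the summed macrophage markers, lowest in MIZ-1WT replicate 1, then MIZ-1WT replicate 2, MIZ-1△POZ replicate 2 and MIZ-1△POZ replicate 1. The log2 ratio of replicate 1 to replicate 2 was -0.33 in MIZ-1WT and 0.98 in MIZ-1△POZ for *Rgs1*, and -0.41 and 0.66 for the macrophage markers. The germinal center markers summed to 154 and 160 CPM in MIZ-1WT and 285 and 234 CPM in MIZ-1△POZ, in the same order. *Bcl6*, which fell, made up 114 and 105 CPM of the MIZ-1WT sums. Without *Bcl6*, a sum added after its values were seen, the other 6 markers summed to 40.2 and 54.6 CPM in MIZ-1WT and 243 and 191 CPM in MIZ-1△POZ. The median log2 fold change of the 7 germinal center markers was 2.41, and that of the 16 macrophage markers was 1.98. Plasma cell markers summed to 734 and 1059 CPM against 2477 and 2311 CPM, also in the same order. For all 7 germinal center markers the log2 ratio of replicate 1 to replicate 2 was -0.05 in MIZ-1WT and 0.29 in MIZ-1△POZ. For the plasma cell markers it was -0.53 and 0.10, and for *Jchain* alone -1.03 and 0.12. The conventional dendritic cell markers summed to 31.9 and 34.2 CPM in MIZ-1WT and 68.1 and 50.3 CPM in MIZ-1△POZ, in the same order too. The B-1 cell markers did so as well, with 78.8 and 80.2 CPM against 111 and 109 CPM. The platelet markers also had this order, but at no more than 1.89 CPM. The part of these cells in the *Rgs1* value was not tested.

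**Figure D3:**
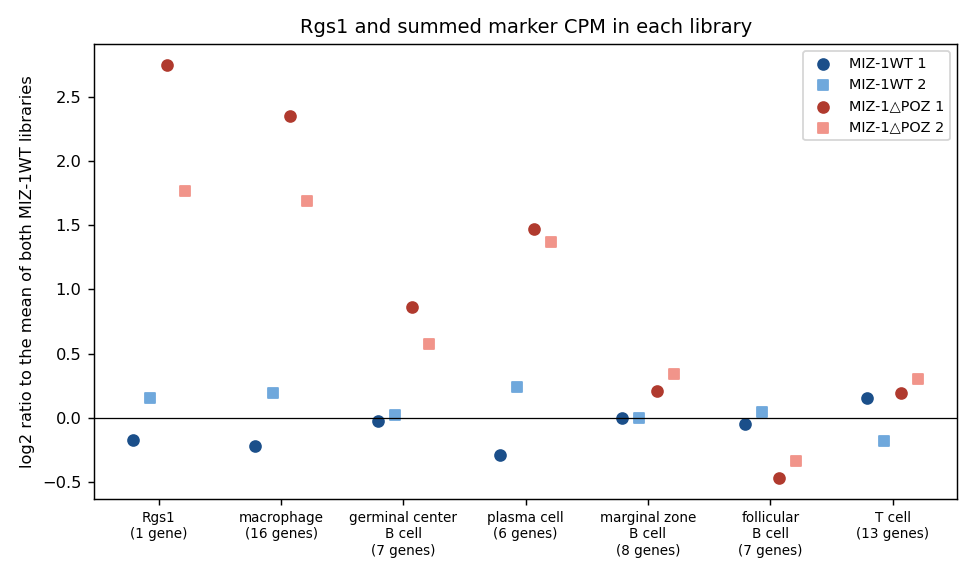
Log2 ratio of each library to the mean of both MIZ-1WT libraries, for Rgs1 and for the summed CPM of 6 marker lists (columns), with one point per library. Rgs1 and the macrophage, germinal center and plasma cell sums have the same order of libraries, with MIZ-1△POZ replicate 1 on top. Sums of lists that are not drawn, such as conventional dendritic and B-1 cells, have this order too. The follicular sum is lower in both MIZ-1△POZ libraries, and the T cell sum lies between -0.18 and 0.30 over the 4 libraries. The germinal center sum includes Bcl6, which fell, and most of the plasma cell sum in MIZ-1△POZ is Jchain.

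*Rgs2* (chr1:143999338-144004161, minus strand) lies 238 kb from *Rgs1* and encodes a regulator that acts mainly on Gαq. It was at 112 and 91.5 CPM in MIZ-1WT and at 114 and 95.04 CPM in MIZ-1△POZ, with the libraries of the genotypes interleaved. The log2 fold change of *Rgs2* was 0.04 (standard error 0.12, confidence interval -0.27 to 0.34, adjusted p = 0.837). *Rgs13*, a germinal center marker that lies between the 2 members and was named for its place, rose from 8.94 and 13.2 CPM to 31.3 and 21.8 CPM (log2 fold change 1.26, adjusted p = 0.0109). *Rgs18*, on the same chromosome, fell by 0.46 on the log2 scale (adjusted p = 0.00675). *Rgs16* had 5 to 22 reads per library and did not pass the test (log2 fold change 1.22, adjusted p = 0.0812).

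Per kilobase of exon, *Rgs1* went from 3.90% and 4.99% of the summed level of 19 RGS genes in MIZ-1WT to 23.1% and 14.1% in MIZ-1△POZ. *Rgs14*, a regulator of Gαi with Ras-binding domains, took 22.8% and 24.4% in MIZ-1WT and 12.05% and 15.1% in MIZ-1△POZ. Its own level fell from 90.5 and 94.9 CPM to 61.1 and 63.6 CPM (log2 fold change -0.57, adjusted p = 0.00172). *Rgs2* held 20.4% and 17.0% in MIZ-1WT and 16.2% and 16.3% in MIZ-1△POZ. The most abundant RGS gene by this measure was *Rgs19* in both MIZ-1WT libraries and in MIZ-1△POZ replicate 2, and *Rgs1* in MIZ-1△POZ replicate 1.

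**Figure D4:**
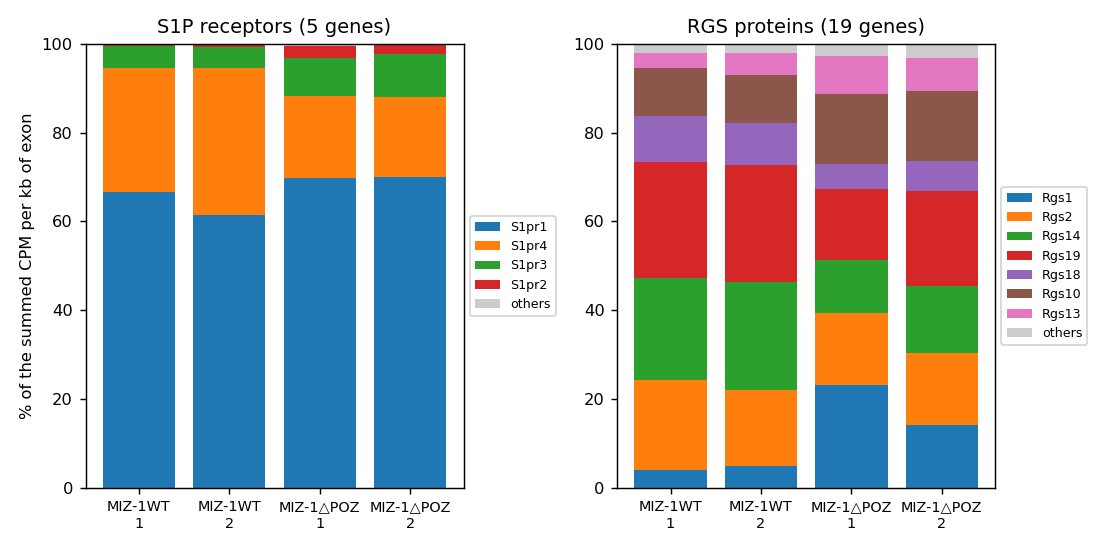
Share of each gene in the summed CPM per kilobase of exon of its family, in percent, for each library (bars). In the S1P receptors, S1pr1 is the largest part in all 4 libraries and S1pr4 shrinks in MIZ-1△POZ. In the RGS genes, Rgs1 grows from below 5% to 23.1% and 14.1%.

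Compared per kilobase of exon across the 10 genes, *Gnai2* had the highest mean level in both genotypes, at 165 and 149 CPM per kb. In MIZ-1WT it did not differ from *Cxcr4* beyond their spread, as *Cxcr4* had 124 and 183 CPM per kb against 162 and 168 for *Gnai2*. In MIZ-1WT the order of means went on with *Cxcr4* at 153, *S1pr1* at 139, *Cnr2* at 97.9, *S1pr4* at 65.9, *Gpr183* at 61.6, *Gna13* at 44.9, *Rgs2* at 31.3, *Ccr6* at 30.3 and *Rgs1* at 7.41 CPM per kb. Neighbors such as *Cxcr4* and *S1pr1*, or *Rgs2* and *Ccr6*, did not differ beyond their spread in MIZ-1WT. In MIZ-1△POZ, *Rgs1* stood at 37.5 CPM per kb, above *S1pr4* at 35.6 and *Rgs2* at 32.1, and *Ccr6* at 42.0 stood above *Gna13* at 41.0. In MIZ-1△POZ the replicates of *Rgs1* spanned more than these gaps.

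Of 46 other chemoattractant and lipid receptors, 39 were tested, of which 20 rose, 6 fell and 13 did not pass, with a median log2 fold change of 0.62. Thus 51.3% rose and 15.4% fell. Of all tested genes 21.1% were higher and 18.9% lower, which is the background for each list below. *Gpr174*, a receptor for lysophosphatidylserine in lymphocytes, and *P2ry10b*, a close relative of such a receptor, fell by 0.62 and 0.88 on the log2 scale (adjusted p = 0.00109 and 0.00076). *Gpr34*, a lysophosphatidylserine receptor of myeloid cells, rose from 13.4 and 15.2 CPM to 57.4 and 51.3 CPM (log2 fold change 1.93, adjusted p = 0.000739). These 3 genes lie on the X chromosome, and *Xist* differed between the genotypes. *Ackr4*, a scavenger of CCL19, CCL20 and CCL21, rose from 35 reads in each MIZ-1WT library to 455 and 338 reads (log2 fold change 3.40, adjusted p = 0.000739). The part of macrophages and of other cells in the receptors that rose was not tested.

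Of 26 other G protein subunits, 16 were tested, and 5 rose and 5 fell (31.25% each). *Gna15*, which lies 2.17 kb from *S1pr4*, fell by 0.46 on the log2 scale (adjusted p = 0.00836), and *Gna11*, 28.6 kb from *S1pr4*, fell by 0.35 (adjusted p = 0.0245). Both encode alpha subunits of the Gαq class, and *Gna11* was named for its place. Among the beta and gamma subunits, *Gnb2* fell by 0.21 (adjusted p = 0.0203) and *Gng5* by 0.35 (adjusted p = 0.0169), whereas *Gng12* rose by 0.77 (adjusted p = 0.00782). *Gnaz* rose from 5 and 30 reads to 295 and 161 reads (log2 fold change 3.58, adjusted p = 0.00877).

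Of 22 other RGS proteins and modulators of G proteins, 16 were tested, of which 6 rose (37.5%) and 5 fell (31.25%). Besides the RGS genes above, *Rgs3* and *Rgs10* rose by log2 fold changes of 0.65 and 0.78 (adjusted p = 0.0029 and 0.00297). *Gpsm2*, which binds Gαi and orients the mitotic spindle, rose by 2.26 (adjusted p = 0.00183). *Ric8a*, a chaperone of Gα subunits, fell by 0.25 (adjusted p = 0.0122). Of 7 receptor kinases and arrestins, *Grk2* and *Grk6* fell by 0.32 and 0.26 (adjusted p = 0.00454 and 0.00957). *Grk5* and *Grk3* rose by 0.90 and 0.86 (adjusted p = 0.00146 and 0.00513). These kinases phosphorylate active receptors, and *Grk2* and *Grk6* were the abundant ones, at 150 and 144 CPM per kb in MIZ-1WT against 4.81 for *Grk3* and 1.77 for *Grk5*.

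Of 28 effectors below the G proteins, 11 fell (39.3%) and 3 rose (10.7%), with a median log2 fold change of -0.15. *Rasgrp2*, the exchange factor that activates Rap1 for integrin adhesion, fell from 402 and 399.6 CPM to 196 and 207 CPM (log2 fold change -0.99, standard error 0.05, adjusted p = 0.000739). *Stk4*, the kinase MST1 of lymphocyte migration, and *Rock1*, a kinase that acts on the actomyosin skeleton, each fell by 0.34 (adjusted p = 0.0037 and 0.00381). *Arhgef12*, an exchange factor that acts below Gα12/13, rose by 0.38 (adjusted p = 0.0219), *Adcy3* by 1.06 (adjusted p = 0.00108) and *Pik3r6* by 1.52 (adjusted p = 0.0160). Of 21 ligands and enzymes that make or break gradients, 14 were tested, with 6 higher (42.9%) and 2 lower (14.3%). Transcripts of *Cxcl12* itself were near the floor, with 1 and 3 reads in MIZ-1WT and 16 and 15 in MIZ-1△POZ (adjusted p = 0.0160). Of 5 genes that control these receptors, 2 fell and 1 rose, as given for *Klf2*, *Foxo1* and *Cd69*. Over the 7 lists, 125 of 155 genes were tested, of which 43 rose and 33 fell. These were 34.4% and 26.4%, against 21.1% and 18.9% of all tested genes. Among genes of at least 30 RPM on average, 13 of 59 tested genes of the lists were higher and 20 lower. There, 1464 of all 6052 tested genes were higher and 1282 lower, so the larger share of higher genes in the lists was not seen with that filter.

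**Figure D5:**
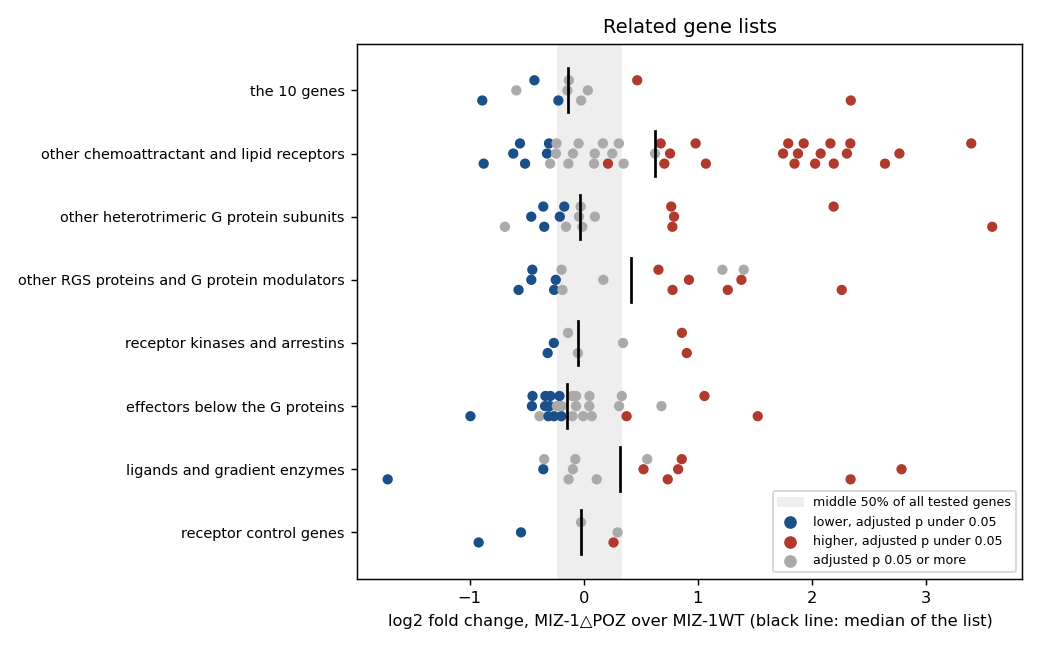
Log2 fold change of MIZ-1△POZ over MIZ-1WT for the 10 genes and for the tested genes of 7 related lists (rows), with one point per gene, coloured by call, and the median of each list as a black line. The grey band holds the middle 50% of all tested genes. The other receptors have the highest median, at 0.62, and the effectors the lowest, at -0.15.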

How the data were processed

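Splenic B220+ cells of MIZ-1WT and MIZ-1△POZ mice gave 2 ribosomal RNA-depleted, stranded, paired-end libraries each, labelled as biological replicates. Reads were trimmed with Trimmomatic, mapped to mm10 with TopHat2 (version 2.1.0 in the submitters' processing notes) and counted on Ensembl genes with HTSeq. The authors deposited raw counts. The strand setting and Ensembl release are not given in the sources used here. Of the reads in the table, 21.1% to 27.2% matched no counted gene feature and 42.8% to 44.1% had no unique alignment. Neither class entered library sizes or tests. Replicates differed by more than sampling noise.

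The test was run on genes that reached 10 counts in 2 or more libraries, with edgeR 4.0.16 (R 4.3.3, TMM, quasi-likelihood, Benjamini-Hochberg adjustment over 14554 genes). P-values weigh the genotype difference against the variation between replicates, which edgeR estimated by sharing information across genes. They rest on 2 libraries per genotype, and intervals assume that model. The alternatives were DESeq2's size factors, the Wald test of DESeq2 1.42.0, no filter, a mean of at least 30 RPM (reads scaled to library size without TMM), a replicate block, removal of 257 immunoglobulin genes, and leaving out each library. Symbols, positions and exon lengths came from GENCODE vM21, with exons of protein-coding transcripts for levels per kb.

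The members and lists were chosen with earlier results of these data known. All members and their closest paralogs were named. Of each related list, up to 3 genes per direction were named, those of smallest p among genes called without overlap of the genotypes.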

Additional observations from a re-analysis of the deposited data

How the results depend on the processing

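Over the 10 members and 10 alternatives, 86 of 100 log2 fold changes kept their direction and side of the threshold, 5 lost and 4 gained a call, and 5 reversed. *S1pr4*, *Gpr183* and *Rgs1* kept their calls in all 10, with ranges of -0.93 to -0.81, -0.47 to -0.36 and 1.78 to 2.77. *S1pr1* turned to 0.053 (adjusted p = 0.711) among the 6052 genes of at least 30 RPM, and ranged from -0.1568 to 0.1204 with 1 library left out. Under the 30 RPM filter the log2 fold changes of all 10 members were higher than in the main fit. *Gna13* was at -0.05 with it against -0.13 in the main fit, and *Gnai2* at -0.07 against -0.14. *Rgs2* ranged from -0.105 to 0.187 with 1 library left out. None of these *S1pr1* or *Rgs2* values was called. *Cxcr4* was called without a filter (-0.60, adjusted p = 0.0119) and without immunoglobulin genes (-0.59, adjusted p = 0.0477), but not with the Wald test of DESeq2 (adjusted p = 0.134). Its range with 1 library left out was -0.84 to -0.29. *Cnr2* and *Ccr6* are given above.

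The 30 RPM filter left 2746 called genes of 6052 tested, 1464 higher and 1282 lower. Of the related lists, 59 genes were tested with it, and 20 were lower and 13 higher. The main fit had more of them higher (43) than lower (33). With 1 library left out, called genes ranged from 2222 to 5581, members called higher from 1 to 2, genes of the related lists called lower from 14 to 35 and called higher from 27 to 41. The lowest counts were those without MIZ-1WT replicate 1 (2222, 1, 14 and 27). The share of higher genes among called genes was 52.8%, and 61.8% and 60.8% without MIZ-1WT replicates 1 and 2. A fit with 1 library in a genotype assumes that it varies like the other genotype.

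The labels gave replicate numbers but no pairing. Across tested genes, the difference between the replicates of MIZ-1WT had a correlation of -0.0688 with that of MIZ-1△POZ. A single difference per genotype cannot show or exclude a pairing of same-numbered libraries. With the replicate number as a block, 4732 genes were called, 3 members lower and 2 higher, and 29 lower and 40 higher in the related lists.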
